A study of Homo sapiens with 12 samples.

Results

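The autophagy core genes are 38 genes that build, enlarge and load the autophagosome. They were taken as a list of gene names, and a probe set was counted as a member when its annotated symbol, current or former, was on the list. All 38 genes were found, with 99 of the 54613 probe sets tested, among 19752 genes with a probe set of their own. HD-MB03, a human medulloblastoma cell line of the MYC-amplified group 3, was treated with 1 µM entinostat, an inhibitor of class I histone deacetylases, or with DMSO, the solvent. RNA was taken at 48 h and at 24 h from 3 biological replicates per treatment and time, on 12 U133 Plus 2.0 arrays, 1 for each RNA sample. All 4 groups come from 1 cell line at a single dose, and the number of arrays limits the precision.

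Macroautophagy wraps cytoplasm in a double membrane, the phagophore, which closes into an autophagosome and fuses with the lysosome. The ULK kinase complex starts the process, a class III PI3-kinase complex marks the membrane with PI3P, and ATG9, ATG2 and WIPI proteins supply and bind lipid. A conjugation cascade similar to ubiquitin transfer then attaches LC3 and GABARAP proteins to the membrane, ATG4 proteases prime and remove them, and cargo receptors link damaged proteins or mitochondria to them.

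At an adjusted p under 0.05 from limma at either time, 26 of the 38 genes differed between entinostat and DMSO, and 12 did not. Of all genes 42.1% differed, and of those with a mean log2 intensity of at least 7, 67.0%. Most changes were small and a few were larger. The largest rises at 48 h were those of GABARAPL1, a ubiquitin-like protein of the autophagosome membrane (2.8-fold), and OPTN, a receptor for ubiquitinated cargo (2.53-fold). ATG4A, a protease that processes GABARAP proteins, followed with 1.76-fold. BNIP3, a mitophagy receptor, and ATG4B, the main LC3 protease, fell to 0.668 and 0.691 of the DMSO level. Genes of the same complex moved in different directions. By their brightest probe sets, ULK2 and BNIP3L were lower than DMSO at 48 h and higher at 24 h. Not all of their probe sets were called so, and the calls at 48 h were lost without some single arrays.

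Array medians of intensity lay between 80.6 and 81.8, and no value was under 36.7. The first principal component, which separated entinostat from DMSO arrays, held 64.0% of the variance, and the next held 9.42%. For GAPDH, a check of RNA integrity, the 3' probe set minus the 5' probe set on the log2 scale lay between -0.18 and -0.026 on all 12 arrays. On the DMSO arrays the group 3 markers MYC, OTX2, IMPG2 and NRL were bright, at mean log2 intensities of 13.48, 12.72, 11.61 and 10.52, as was GABRA5 at 9.83. CRX, NPR3 and RCVRN were at 6.94, 6.22 and 5.95. The dimmest markers of other cell types were LUM of fibroblasts and PTPRC of leukocytes, at 5.67 and 5.74. COL1A2, GFAP, KRT18, PECAM1, DCN and CD3E lay between 6.15 and 6.60, above RCVRN, and MBP was at 7.16, above CRX. Among the markers of other medulloblastoma subgroups PDLIM3 was bright, at 10.03. Of the 8 group 3 markers, 2 were higher and 3 lower with entinostat at 48 h, and 1 was higher and 3 lower at 24 h. GABRA5 fell, with -2.12 at 48 h and -1.78 at 24 h. Of 9 markers of other cell types, KRT18 of epithelia was higher (1.01) and MBP of oligodendrocytes lower (-0.44) at 48 h, and none was called at 24 h. Their summed intensity lay between 776 and 833 with entinostat and between 748 and 790 with DMSO at 48 h, and between 760 and 762 with entinostat and between 698 and 770 with DMSO at 24 h. Their part in the results was not tested. Arrays measure the RNA of the whole culture, so a change in the share of cells that express a gene and a change in RNA per cell cannot be told apart.

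The probe set with the highest mean log2 intensity over the 12 arrays stood for each gene, and a call is an adjusted p under 0.05 from limma with Benjamini-Hochberg adjustment over all probe sets. Fold changes are given as log2 of entinostat over DMSO, with a standard error. At 48 h, 15 of the 38 members were higher (39.5%) and 5 were lower (13.2%), against 17.3% higher and 16.6% lower among all genes. At 24 h, 15 members were higher (39.5%) and 7 lower (18.4%), against 18.3% higher and 15.0% lower among all genes. Most members are well expressed. Of the members, 37 had a mean log2 intensity of at least 7, and among the 9351 genes at that level the shares were 25.4% higher and 29.9% lower at 48 h, and 27.1% and 26.6% at 24 h. The median log2 fold change of the members was 0.09 at 48 h and 0.15 at 24 h, against -0.02 at both times over all genes.

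The same direction was called at both times for 14 members, 11 higher and 3 lower, against 13.7% higher and 11.2% lower at both among all genes. A call at either time was made for 26 members, and 12 had none, where 42.1% of all genes and 67.0% of those with a mean log2 intensity of at least 7 had one. A called log2 fold change of at least 0.5 in size was seen for 7 members at 48 h and 4 at 24 h, where 15.2% and 13.8% of all genes had one. Of the 9351 genes with a mean log2 intensity of at least 7, 2438 had one at 48 h and 2185 at 24 h. That is a larger share than among the members at both times. Over the 99 probe sets, 28 were higher and 13 lower at 48 h, and 32 were higher and 14 lower at 24 h. The shares over all probe sets were 12.9% higher and 13.2% lower at 48 h, and 12.8% and 12.4% at 24 h. Within a group, the coefficient of variation of a member between arrays was 5.31% at the median and 22.3% at the highest.

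**Figure D1:**
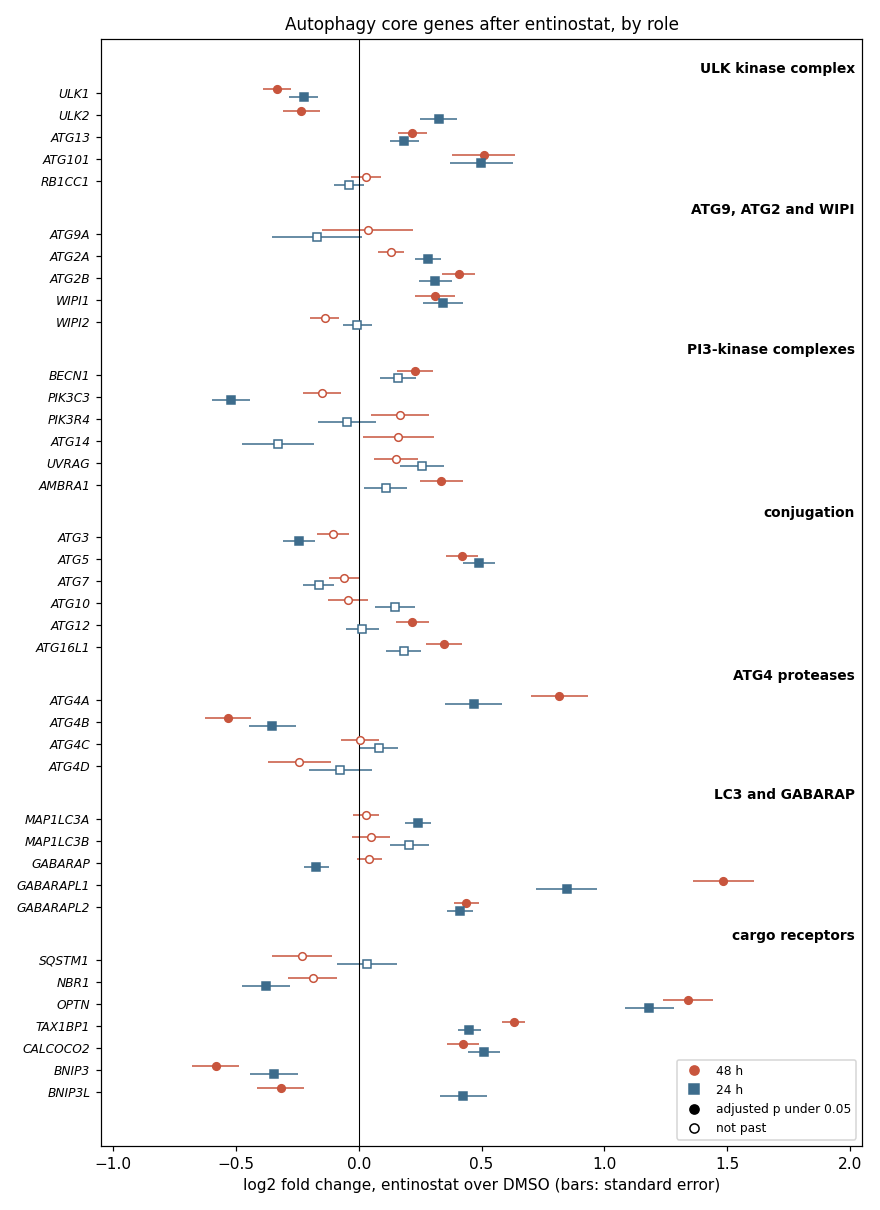
Log2 fold change of entinostat over DMSO for the 38 autophagy core genes (x axis), grouped by role (y axis), at 48 h (red circles) and 24 h (blue squares). Bars are standard errors from limma with 3 arrays per group, and filled symbols are adjusted p under 0.05. GABARAPL1 and OPTN lie farthest to the right, BNIP3 and ATG4B farthest to the left at 48 h, and ULK2 and BNIP3L lie on opposite sides of 0 at the 2 times.

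The plot of fold changes by role shows genes of 1 role on both sides of 0. Counts follow for each group of 4 to 7 genes in turn. The shares over all genes to set beside them are 17.3% higher and 16.6% lower at 48 h, and 18.3% and 15.0% at 24 h. Intensities on every array are given for the genes whose called log2 fold change reached 0.5 in size or whose response differed between the times. To show the sequence around the starts of the genes with the highest and lowest values at 48 h, promoter windows were read from RefSeq on GRCh38.p14. Each runs from 250 bases before the start to 50 bases after it, 5′ to 3′ on the strand of the gene. An entry was found for 33 of the 38 members, and none for RB1CC1, UVRAG, BNIP3L, ATG4D and MAP1LC3A. Capitals mark the E-box CACGTG, a sequence that MYC and the MiT/TFE factors of lysosome genes can bind, the GC box GGGCGG or CCGCCC, the CCAAT box CCAAT or ATTGG, and the cAMP response element TGACGTCA.
GABARAPL1 (chr12:10212627-10212926, + strand): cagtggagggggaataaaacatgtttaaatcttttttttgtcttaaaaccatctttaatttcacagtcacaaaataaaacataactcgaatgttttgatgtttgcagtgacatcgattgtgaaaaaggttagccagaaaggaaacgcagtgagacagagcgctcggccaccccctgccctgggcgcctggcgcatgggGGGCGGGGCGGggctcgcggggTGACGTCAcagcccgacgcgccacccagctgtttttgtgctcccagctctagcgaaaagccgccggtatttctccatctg
OPTN (chr10:13099832-13100131, + strand): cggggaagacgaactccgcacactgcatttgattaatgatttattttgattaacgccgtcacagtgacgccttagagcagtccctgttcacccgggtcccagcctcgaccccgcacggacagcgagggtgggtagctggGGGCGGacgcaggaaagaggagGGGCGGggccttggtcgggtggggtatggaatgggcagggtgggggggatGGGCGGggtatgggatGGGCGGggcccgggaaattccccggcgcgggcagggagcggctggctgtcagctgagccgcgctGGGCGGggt
ATG4A (chrX:108091528-108091827, + strand): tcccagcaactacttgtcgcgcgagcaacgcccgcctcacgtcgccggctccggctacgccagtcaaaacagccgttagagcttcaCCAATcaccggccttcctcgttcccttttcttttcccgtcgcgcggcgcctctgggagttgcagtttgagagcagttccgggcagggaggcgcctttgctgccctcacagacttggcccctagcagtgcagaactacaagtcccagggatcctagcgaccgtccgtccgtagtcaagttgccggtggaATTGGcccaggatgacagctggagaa
BNIP3 (chr10:131981874-131982173, - strand): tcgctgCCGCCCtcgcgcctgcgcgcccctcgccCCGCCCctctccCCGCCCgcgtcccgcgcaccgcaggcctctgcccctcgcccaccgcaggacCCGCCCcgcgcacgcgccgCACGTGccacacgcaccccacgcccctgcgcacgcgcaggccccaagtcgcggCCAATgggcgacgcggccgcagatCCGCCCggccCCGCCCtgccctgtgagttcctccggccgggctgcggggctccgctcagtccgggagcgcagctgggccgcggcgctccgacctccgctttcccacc
The GABARAPL1 window held 2 GC boxes that share 1 base, and 1 cAMP response element. The table gives OPTN 2 overlapping windows. The one shown held 5 GC boxes and the other, chr10:13099913-13100212, held 6. The ATG4A window held 2 CCAAT boxes and no GC box. The BNIP3 window, the richest in G and C at 80.7%, held 6 GC boxes, 1 E-box and 1 CCAAT box. The other marked motifs do not overlap each other.

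Of the 33 members with an entry, 3 (9.09%) held the E-box, ATG14, ATG3 and BNIP3, where 7.26% of the 35116 windows in the whole RefSeq table held it. A GC box stood in 24 members (72.7%) against 45% of all windows, and a CCAAT box in 13 members (39.4%) against 34.6%. The cAMP response element stood in the GABARAPL1 window alone among the members (3.03%), where 1.85% of all windows held it. That motif was added to the search after the GABARAPL1 window had been read. A member was counted when any of its windows held the motif, whereas the share of all windows counts single windows. Members with several windows, such as OPTN, thus had more chances, and the shares are not of the same unit. A match of letters is no evidence of binding, and both strands were searched.

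The ULK kinase complex starts phagophore formation under the control of mTORC1 and AMPK. Of its 5 genes, 2 were higher and 2 lower at 48 h, while 3 were higher and 1 lower at 24 h. ATG101, which stabilizes ATG13 in the complex, had intensities of 569.8, 614 and 533 on the entinostat arrays and 367, 407 and 434 on the DMSO arrays at 48 h. The 24 h arrays had 753, 579 and 545 with entinostat and 459.9, 497 and 369 with DMSO. The entinostat arrays were above the DMSO arrays at both times. The log2 fold change was 0.51 ± 0.13 at 48 h (SE, adjusted p-value = 0.0106) and 0.50 ± 0.13 at 24 h (adjusted p-value = 0.0124). The call at 24 h was lost without entinostat replicate 1 (0.36, adjusted p-value = 0.0514) and without DMSO replicate 3 (0.37, adjusted p-value = 0.0559).

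ATG13, the adaptor that joins the kinase to its partners, rose slightly, by log2 values of 0.22 at 48 h (adjusted p-value = 0.0164) and 0.19 at 24 h (adjusted p-value = 0.039). The probe set that stood for it ends in _x_at, which marks probe sets that can bind transcripts of other genes. Neither of its other probe sets was called at either time. They had 0.15 (203363_s_at) and 0.05 (203364_s_at) at 48 h, and 0.05 and 0.25 at 24 h. The call at 24 h was lost in 7 of the 12 refits that each left out 1 array, with values between 0.14 and 0.24 over all refits, namely without any 1 of DMSO replicates 2 and 3 and the 3 entinostat arrays at 24 h, DMSO replicate 2 and entinostat replicate 3 at 48 h. Blocking on replicate number ended it too (adjusted p-value = 0.0536). At 48 h it was lost without DMSO replicate 1 (0.19), DMSO replicate 2 (0.21) or entinostat replicate 1 (0.20). ULK1, the initiating kinase, fell, with -0.33 at 48 h (adjusted p-value = 0.000799) and -0.22 at 24 h (adjusted p-value = 0.0115). Without DMSO replicate 3, the ULK1 value at 24 h was -0.20 (adjusted p-value = 0.0513). RB1CC1, the scaffold known as FIP200, had 0.03 at 48 h and -0.04 at 24 h and passed at neither time.

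ULK2, the close homologue of ULK1, had intensities of 240.3, 288 and 240.5 with entinostat and 285, 297 and 320.0 with DMSO at 48 h. Its 24 h intensities were 326, 322 and 343 with entinostat and 266, 251 and 274 with DMSO. The entinostat arrays overlapped the DMSO arrays at 48 h and lay above them at 24 h. The log2 fold change was -0.23 ± 0.076 at 48 h (SE, adjusted p-value = 0.0375) and 0.33 ± 0.076 at 24 h (adjusted p-value = 0.00623). The effect at 48 h minus that at 24 h was -0.56 ± 0.11 (adjusted p-value = 0.0294). Of its 4 probe sets, 204063_s_at gave the same pattern, with -0.31 at 48 h and 0.22 at 24 h (adjusted p-value of the difference = 0.0291). The other 2, 1554112_a_at and 215154_at, gave 0.06 and -0.01 at 48 h, and 0.35 and 0.15 at 24 h, with no call at 48 h and a call at 24 h for 1554112_a_at.

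The ULK2 call at 48 h was lost without entinostat replicate 1, entinostat replicate 3 or DMSO replicate 3 (-0.19 each) and without DMSO replicate 2 (-0.24, adjusted p-value = 0.0731). The adjusted p of the ULK2 difference between the times was over 0.05 in 9 of the 12 refits without 1 array, up to 0.0767, while its value stayed between -0.65 and -0.51. Those 9 left out any entinostat array at 24 h, DMSO replicates 1 or 2 at 24 h, DMSO replicates 2 or 3 at 48 h, or entinostat replicates 1 or 3 at 48 h.

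ATG9A, ATG2A, ATG2B, WIPI1 and WIPI2 bring lipid to the growing membrane and read its PI3P. Of these 5 genes, 2 were higher at 48 h and 3 at 24 h, and none was lower at either time. ATG2B, a lipid transfer protein, rose by 0.41 at 48 h (adjusted p-value = 0.00057) and 0.31 at 24 h (adjusted p-value = 0.00407). Its other, dimmer probe sets were called at neither time, with values between 0.09 and 0.17 at 48 h and between 0.09 and 0.21 at 24 h. Its homologue ATG2A rose at 24 h by 0.28 (adjusted p-value = 0.00146), and at 48 h its value was 0.13 (adjusted p-value = 0.0983). WIPI1, a PI3P-binding propeller protein, rose by 0.31 at 48 h (adjusted p-value = 0.0135) and 0.34 at 24 h (adjusted p-value = 0.00776), and its other probe set gave 0.39 and 0.34, also called. The WIPI1 call of the representing probe set at 48 h was lost without DMSO replicate 1 (0.29) or entinostat replicate 2 (0.26). ATG9A, a lipid scramblase on vesicles, had 0.04 at 48 h and -0.17 at 24 h, with the largest standard error of the members (0.18).

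WIPI2, which recruits the ATG16L1 complex, was the only member whose probe sets passed in opposite directions at the same time. Probe set 202031_s_at had intensities of 656, 560.0 and 593 with entinostat and 758, 682 and 719.9 with DMSO at 48 h, a log2 fold change of -0.26 (adjusted p-value = 0.0127). Probe set 226986_at had 421, 387 and 348 with entinostat and 268, 321 and 317 with DMSO at 48 h, a log2 fold change of 0.35 (adjusted p-value = 0.0148). Entinostat arrays were all below the DMSO arrays for the one probe set and all above them for the other. At 24 h the values of these 2 probe sets were -0.08 (not past) and 0.42 (called). The brightest WIPI2 probe set, which stood for the gene, was called at neither time (-0.14 and -0.01), so the direction for WIPI2 depends on the probe set.

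The class III PI3-kinase complexes produce PI3P on the phagophore. Of the 6 genes, 2 were higher and none lower at 48 h, and none was higher and 1 lower at 24 h. PIK3C3, the catalytic subunit VPS34, had intensities of 467, 449 and 456 with entinostat and 551, 466 and 509 with DMSO at 48 h. At 24 h it had 379, 357 and 376 with entinostat and 541, 476 and 581 with DMSO. All entinostat arrays were below all DMSO arrays at 24 h, while at 48 h the groups overlapped. The log2 fold change was -0.15 ± 0.078 at 48 h (SE, adjusted p-value = 0.203) and -0.52 ± 0.078 at 24 h (adjusted p-value = 0.000273), and the difference between the times, 0.37, did not pass (adjusted p-value = 0.146). Of its 7 probe sets, 4 were lower at 24 h, among them 229705_at (-0.49) and 239300_at (-0.58), which were also lower at 48 h (-0.39 and -0.38).

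BECN1, the scaffold that BCL2 proteins bind, rose by 0.23 at 48 h (adjusted p-value = 0.0369), and at 24 h its value was 0.16 (adjusted p-value = 0.149). Leaving out any 1 of the 6 arrays at 48 h ended the BECN1 call, with values between 0.20 and 0.25. Of its other 2 probe sets, 208946_s_at was called higher at 48 h (0.34, adjusted p-value = 0.0027) and had -0.05 at 24 h, and the dimmer 1561652_at had 0.06 at 48 h (adjusted p-value = 0.615). AMBRA1, a cofactor of BECN1 and ULK1, rose by 0.34 at 48 h (adjusted p-value = 0.0127) and had 0.11 at 24 h (adjusted p-value = 0.446). Without DMSO replicate 2 the AMBRA1 value at 48 h was 0.24 (adjusted p-value = 0.0508). Its probe set 52731_at was called higher at both times, with 0.39 at 48 h (adjusted p-value = 6.3e-05) and 0.31 at 24 h (adjusted p-value = 0.000481). The regulatory kinase PIK3R4, known as VPS15, had 0.17 at 48 h and -0.05 at 24 h, and UVRAG, the partner of BECN1 in the endosomal complex, had 0.15 at 48 h and 0.26 at 24 h (adjusted p at 24 h = 0.0547). ATG14, which directs the kinase to the phagophore, had 0.16 at 48 h and -0.33 at 24 h, with adjusted p of 0.506 at 48 h and 0.132 at 24 h. With the replicate number as a block, ATG14 was called lower at 24 h (adjusted p-value = 0.0457).

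The conjugation machinery attaches LC3 and GABARAP proteins to phosphatidylethanolamine. Of its 6 genes, 3 were higher and none lower at 48 h, and 1 was higher and 1 lower at 24 h. ATG5, ATG12 and ATG16L1, which form the ligase-like complex, were the 3 that rose at 48 h. ATG5 rose by 0.42 ± 0.065 at 48 h (SE, adjusted p-value = 0.000354) and 0.49 ± 0.065 at 24 h (adjusted p-value = 0.000117), and all of its 3 probe sets were called higher at both times. ATG16L1 rose by 0.35 at 48 h (adjusted p-value = 0.00298) and had 0.18 at 24 h (adjusted p-value = 0.0924). ATG12 rose by 0.22 at 48 h (adjusted p-value = 0.0312) and had 0.01 at 24 h. The ATG12 call was lost without DMSO replicate 1 (0.23), DMSO replicate 2 (0.17) or entinostat replicate 2 (0.15) at 48 h, and with the replicate number as a block (adjusted p-value = 0.0524). Another ATG12 probe set, 204833_at, was called higher at both times, with 0.36 at 48 h (adjusted p-value = 0.000694) and 0.22 at 24 h (adjusted p-value = 0.0175). The remaining ATG12 probe set had -0.10 at 48 h and -0.05 at 24 h, with no call.

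None of the enzymes that charge and transfer the ubiquitin-like proteins was called higher by its brightest probe set. ATG3, the E2-like enzyme for LC3, fell at 24 h by 0.24 on the log2 scale (adjusted p-value = 0.0134) and had -0.10 at 48 h. Without entinostat replicate 3 the ATG3 value at 24 h was -0.21 (adjusted p-value = 0.0572), and its other, dimmer probe set 220237_at had -0.08 (adjusted p-value = 0.516). ATG7, the E1-like enzyme, had -0.06 at 48 h and -0.16 at 24 h by its brightest probe set, with no call, while 2 of its other 3 probe sets were lower at 24 h, at -0.43 for 224025_s_at and -0.23 for 218673_s_at. ATG10, the E2-like enzyme for ATG12, had -0.04 at 48 h and 0.15 at 24 h, and 1 of its other 3 probe sets, 223677_at, rose at 24 h by 0.21.

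The 4 ATG4 proteases cut LC3 and GABARAP proteins before conjugation and free them afterwards, and they moved apart. ATG4A had intensities of 175, 242 and 179 with entinostat and 120.3, 109 and 106 with DMSO at 48 h. The 24 h arrays had 192, 171 and 152 with entinostat and 126, 125 and 120.2 with DMSO. Every entinostat array was above every DMSO array at both times. ATG4A rose by 0.82 ± 0.12 at 48 h (SE, adjusted p-value = 0.000167) and 0.47 ± 0.12 at 24 h (adjusted p-value = 0.00944). The difference between the times, 0.35 ± 0.16, did not pass (adjusted p-value = 0.409).

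ATG4B had intensities of 338, 349 and 381 with entinostat and 517, 546 and 482 with DMSO at 48 h. Its 24 h intensities were 373, 396 and 406 with entinostat and 552, 537 and 421 with DMSO. The entinostat arrays were below the DMSO arrays at both times, and the nearest at 24 h was DMSO replicate 3. ATG4B fell, with -0.53 ± 0.095 at 48 h (SE, adjusted p-value = 0.00099) and -0.35 ± 0.095 at 24 h (adjusted p-value = 0.0156). Its probe set ends in _x_at. The other 2 probe sets gave -0.42 (called) and -0.16 (not past) at 48 h. The ATG4B call at 24 h was lost without DMSO replicate 1 (-0.28, adjusted p-value = 0.0714), DMSO replicate 2 (-0.30) or entinostat replicate 1 (-0.32). ATG4C and ATG4D were called at neither time, with 0.00 and -0.24 at 48 h and 0.08 and -0.07 at 24 h.

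The LC3 and GABARAP proteins themselves are attached to the membrane and bind the receptors. Of these 5 genes, 2 were higher and none lower at 48 h, and 3 were higher and 1 lower at 24 h. GABARAPL1 had intensities of 614, 661 and 597 with entinostat and 229, 188 and 257 with DMSO at 48 h. At 24 h it had 403, 506 and 421 with entinostat and 263, 266 and 211 with DMSO. The ranges of the 2 treatments did not overlap at either time. GABARAPL1 rose by 1.48 ± 0.12 at 48 h (SE, adjusted p-value = 2.04e-06) and 0.85 ± 0.12 at 24 h (adjusted p-value = 0.000233). The effect was larger at 48 h by 0.64 ± 0.18, which did not pass (adjusted p-value = 0.114).

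The other GABARAPL1 probe set, 208868_s_at, had 555, 508 and 492 with entinostat and 209, 196 and 206 with DMSO at 48 h, and rose by 1.35 at 48 h and 0.72 at 24 h. Probe set 211458_s_at is annotated to both GABARAPL1 and its near-identical copy GABARAPL3, so it was not counted for either. It changed 3.26-fold at 48 h and 1.92-fold at 24 h. Transcripts of the 2 genes cannot be told apart there. GABARAPL2, known as GATE-16, rose by almost the same amount at both times, 0.44 ± 0.051 at 48 h (adjusted p-value = 3.41e-05) and 0.41 ± 0.051 at 24 h (adjusted p-value = 6.31e-05).

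MAP1LC3B, the LC3 protein most used as a marker of autophagosomes, had 0.05 at 48 h (adjusted p-value = 0.737) and 0.21 at 24 h (adjusted p-value = 0.0785). MAP1LC3A rose at 24 h by 0.24 (adjusted p-value = 0.0043), and all of its 3 probe sets were called higher then. At 48 h it had 0.03. GABARAP, the founding member of its subfamily, fell at 24 h by 0.17 on the log2 scale (adjusted p-value = 0.0274) and had 0.04 at 48 h. The GABARAP call at 24 h was lost without any 1 of the 3 entinostat arrays or without DMSO replicates 1 or 3, with values between -0.20 and -0.15 over all refits.

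**Figure D2:**
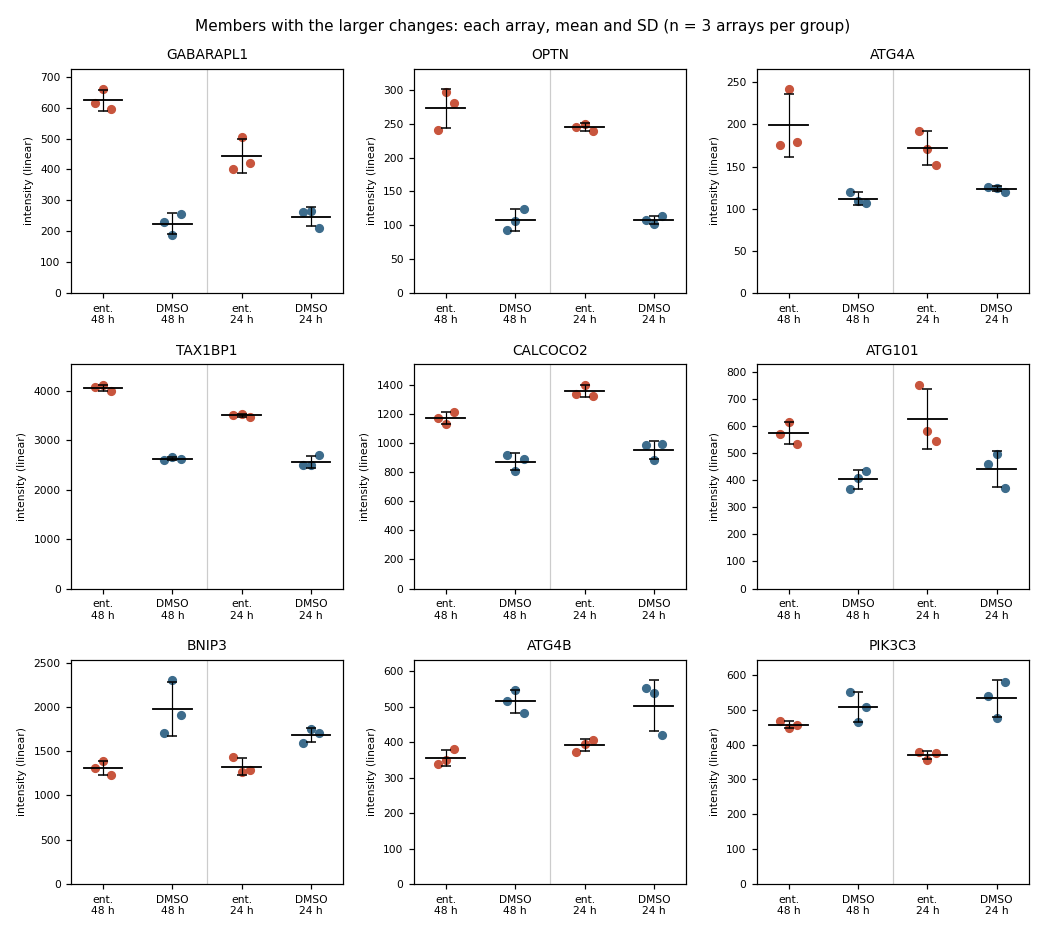
Intensity on a linear scale (y axis, from 0) of 9 members on each of the 12 arrays, with the mean and SD of 3 arrays per group. Groups run from entinostat 48 h and DMSO 48 h to entinostat 24 h and DMSO 24 h (x axis). For GABARAPL1 the 48 h entinostat arrays lie between 597 and 661 and the 48 h DMSO arrays between 188 and 257.

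The plot of intensities by array shows that for GABARAPL1, OPTN, ATG4A, TAX1BP1, CALCOCO2 and ATG101 every entinostat array lay above the DMSO arrays of its time. For BNIP3 and ATG4B it lay below them at both times, and for PIK3C3 at 24 h. The members in the plot were picked for the size of their called fold changes, which makes separate arrays likely. Their separation is therefore no evidence beyond those calls. The share of all genes with separate arrays was not counted. Scales differ between the panels and levels of different probe sets are not comparable.

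Cargo receptors hold ubiquitinated proteins or mitochondria with one end and LC3 or GABARAP proteins with the other. Of the 7 genes, 3 were higher and 2 lower at 48 h, while 4 were higher and 2 lower at 24 h. OPTN, which serves mitophagy and the clearance of bacteria, had intensities of 241, 296 and 281 with entinostat and 92.8, 107 and 125 with DMSO at 48 h. The 24 h arrays had 245, 250.3 and 239 with entinostat and 108, 102 and 114 with DMSO. The ranges of the treatments were far apart at both times. OPTN rose by 1.34 ± 0.10 at 48 h (SE, adjusted p-value = 8.67e-07) and 1.18 ± 0.10 at 24 h (adjusted p-value = 2.69e-06), and its dimmer probe set 202073_at by 1.26 and 1.08.

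TAX1BP1, a receptor for protein aggregates, had intensities of 4082, 4122 and 3995 with entinostat and 2606, 2658 and 2619 with DMSO at 48 h. Its 24 h intensities were 3506, 3535 and 3471 with entinostat and 2508, 2492 and 2702 with DMSO. Arrays of a group differed little, and the treatments were apart at both times. TAX1BP1 rose by 0.63 ± 0.048 at 48 h (SE, adjusted p-value = 8.86e-07) and 0.45 ± 0.048 at 24 h (adjusted p-value = 1.64e-05). Its probe set 213786_at had 0.80 at 48 h and 0.30 at 24 h (adjusted p-value = 0.137), with no call at 24 h.

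CALCOCO2, known as NDP52, a receptor for bacteria and mitochondria, had intensities of 1173, 1133 and 1211 with entinostat and 921, 807 and 893 with DMSO at 48 h. At 24 h it had 1338, 1403 and 1328 with entinostat and 986, 883 and 992 with DMSO. The entinostat arrays were above the DMSO arrays at both times. CALCOCO2 rose by 0.43 ± 0.065 at 48 h (SE, adjusted p-value = 0.000297) and 0.51 ± 0.065 at 24 h (adjusted p-value = 7.83e-05). Of its 4 probe sets, 2 were called higher at each time and none lower. Their values ran from -0.11 to 0.43 at 48 h and from -0.01 to 0.51 at 24 h.

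SQSTM1, the receptor p62 that is itself degraded by autophagy, had -0.23 at 48 h (adjusted p-value = 0.214) and 0.03 at 24 h (adjusted p-value = 0.895) by its brightest probe set. Of its other 4 probe sets, 1 was called, 244804_at, with intensities of 91.8, 128 and 132 with entinostat and 73.0, 78.9 and 70.7 with DMSO at 48 h (0.64, adjusted p-value = 0.00079). Its entinostat arrays were above the DMSO arrays at 48 h, while the brightest probe set lay below them. NBR1, a receptor related to p62, fell at 24 h by 0.38 on the log2 scale (adjusted p-value = 0.0129) and had -0.19 at 48 h. The NBR1 call at 24 h was lost without entinostat replicate 1 (-0.30), entinostat replicate 3 (-0.32) or DMSO replicate 3 (-0.34). Its probe set 201383_s_at was lower at 48 h (-0.19) and 24 h (-0.16), and the dim 1568856_at was lower at 48 h (-0.22). The NBR1 probe set 1568857_a_at, which stood for the gene once _x_at and _s_at endings were dropped, had -0.13 at 24 h (adjusted p-value = 0.267).

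BNIP3, a receptor on the outer mitochondrial membrane, had intensities of 1308, 1388 and 1231 with entinostat and 1709, 2303 and 1910.1 with DMSO at 48 h. The 24 h arrays had 1437, 1261 and 1282 with entinostat and 1596, 1746 and 1711 with DMSO. The entinostat arrays were below the DMSO arrays at both times. BNIP3 fell, with -0.58 ± 0.097 at 48 h (SE, adjusted p-value = 0.000587) and -0.35 ± 0.097 at 24 h (adjusted p-value = 0.0194), and the other BNIP3 probe set was at -0.77 at 48 h (called) and -0.28 at 24 h (not past). The call at 24 h was lost without entinostat replicates 2 (-0.31) or 3 (-0.32) and without DMSO replicates 2 (-0.32) or 3 (-0.33).

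BNIP3L, known as NIX, the related receptor that clears mitochondria from maturing red cells, had intensities of 301, 368 and 350.3 with entinostat and 389, 408 and 473 with DMSO at 48 h. Its 24 h intensities were 475, 479 and 501 with entinostat and 322, 391 and 372 with DMSO. The entinostat arrays were all below the DMSO arrays at 48 h and all above them at 24 h. The log2 fold change was -0.32 ± 0.096 at 48 h (SE, adjusted p-value = 0.0267) and 0.43 ± 0.096 at 24 h (adjusted p-value = 0.00506), and the effect at 48 h minus that at 24 h was -0.74 ± 0.14 (adjusted p-value = 0.0269). The other probe set, 221479_s_at, gave -0.14 at 48 h (not past) and 0.26 at 24 h (called), and its difference between the times did not pass (adjusted p-value = 0.12).

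The BNIP3L call at 48 h was lost without entinostat replicate 1 (-0.23, adjusted p-value = 0.114) or DMSO replicate 3 (-0.23, adjusted p-value = 0.118). The adjusted p of the BNIP3L difference between the times was over 0.05 in 6 of 12 refits, up to 0.0672, with values between -0.80 and -0.66 over all refits. Those 6 left out entinostat replicates 2 or 3 or DMSO replicate 1 at 24 h, or entinostat replicate 1 or DMSO replicates 2 or 3 at 48 h.

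**Figure D3:**
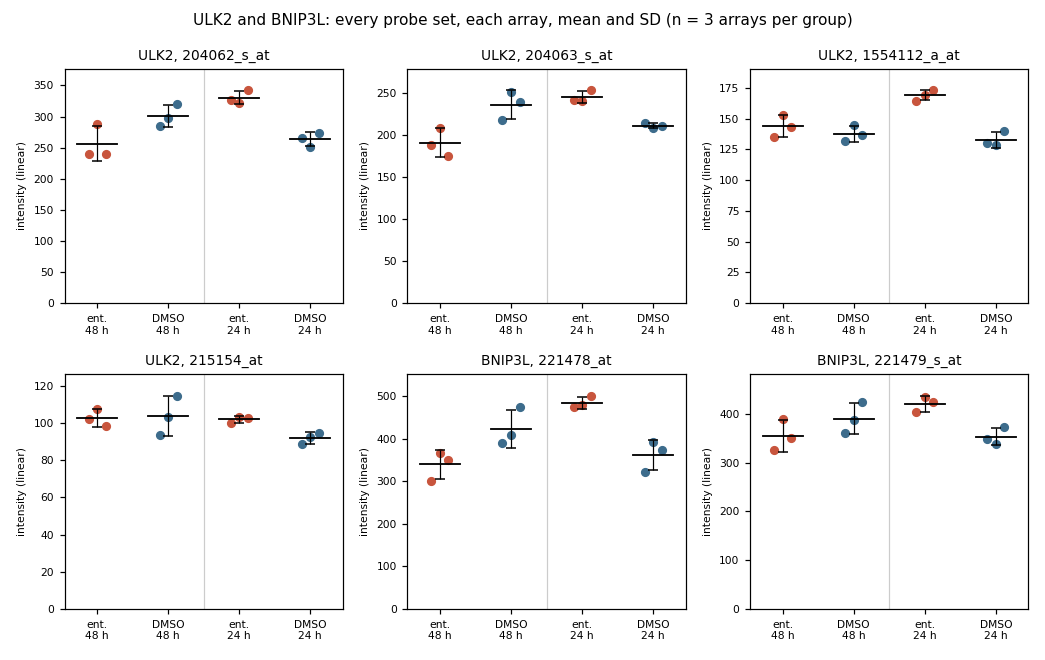
Intensity on a linear scale (y axis, from 0) of every probe set of ULK2 (4) and BNIP3L (2) on each of the 12 arrays, with the mean and SD of 3 arrays per group (x axis, entinostat left of DMSO at each time). The probe sets 204062_s_at, 204063_s_at and 215154_at of ULK2 and both of BNIP3L have entinostat means below DMSO at 48 h and above DMSO at 24 h. The effect at 48 h minus that at 24 h is -0.56 for ULK2 and -0.74 for BNIP3L by the probe sets that stand for them.

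ULK2 and BNIP3L were the 2 members whose response differed between the times, both toward lower values at 48 h. Over all genes, 0.790% had a higher and 1.13% a lower effect at 48 h than at 24 h. Of the 9351 genes with a mean log2 intensity of at least 7, 130 were called higher and 188 lower. With probe sets under that level left out, 2 of 37 members had a called difference, against 6.81% of the genes. In the plot, 204062_s_at, 204063_s_at and 215154_at of ULK2 and both probe sets of BNIP3L had entinostat means below DMSO at 48 h and above it at 24 h. For 215154_at the means at 48 h were close, 102.6 with entinostat and 103.7 with DMSO. The mean of 1554112_a_at of ULK2 was above DMSO at both times. Within the entinostat arrays, 48 h against 24 h, 4 members were higher and 3 lower, against 3.96% higher and 6.34% lower among all genes. The 4 were GABARAPL1 (0.50), GABARAP (0.35), PIK3C3 (0.30) and TAX1BP1 (0.21), and the 3 were BNIP3L (-0.52), ULK2 (-0.37) and ATG2A (-0.33). Within the DMSO arrays, limma called none of the 38 members between 48 h and 24 h, and it called 0.461% of all genes. At an unadjusted p under 0.05 from limma there were 7 members, and the share of all genes at that level was not counted. Among those 7 in DMSO were BNIP3L (0.23), ULK2 (0.19), GABARAP (0.14) and ATG2A (-0.18). These comparisons share arrays with those of entinostat against DMSO.

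The genes around the core were read the same way. Of 34 measured regulators of autophagy, such as mTORC1, AMPK, sestrins and transcription factors of lysosome genes, 15 were higher and 6 lower at 48 h, while 14 were higher and 5 lower at 24 h. These are 44.1% and 17.6% at 48 h, and 41.2% and 14.7% at 24 h. Among all genes the shares were 17.3% and 16.6%, and 18.3% and 15.0%. Among genes with a mean log2 intensity of at least 7 they were 25.4% and 29.9%, and 27.1% and 26.6%. TP53INP2, which binds LC3 and brings it from the nucleus to autophagosomes, rose by 1.67 at 48 h and 0.99 at 24 h. SESN3, a sestrin that restrains mTORC1, rose by 1.61 and 1.59, and PRKAA2, a catalytic subunit of AMPK, by 1.06 and 1.17. RUBCN, an inhibitor of autophagosome maturation, rose by 1.02 and 1.18. Regulators with activating and with inhibiting roles were among the genes that rose.

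TP53INP2 had intensities of 826, 821 and 871 with entinostat and 257, 278 and 258 with DMSO at 48 h. At 24 h it had 393, 556 and 531 with entinostat and 213, 289.9 and 237 with DMSO. All entinostat arrays were above the DMSO arrays. Of the 22 genes that deliver the autophagosome to the lysosome, 9 were higher (40.9%) and 3 lower (13.6%) at 48 h. At 24 h, 9 were higher (40.9%) and 5 lower (22.7%). The shares over all genes were 17.3% and 16.6% at 48 h, and 18.3% and 15.0% at 24 h. LAMP1, a lysosomal membrane protein, was the only gene of these lists whose response differed between the times, with 0.35 at 48 h, -0.07 at 24 h and a difference of 0.42 (adjusted p-value = 0.0133).

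Of 32 further autophagy factors that were measured, 7 were higher (21.9%) and 8 lower (25%) at 48 h, and 8 were higher (25%) and 8 lower (25%) at 24 h. The shares over all genes were 17.3% and 16.6% at 48 h, and 18.3% and 15.0% at 24 h. Among genes with a mean log2 intensity of at least 7 they were 25.4% and 29.9%, and 27.1% and 26.6%, so these counts lay near those shares. Among them CCPG1, a receptor for the endoplasmic reticulum, rose by 1.50 at 48 h and 1.63 at 24 h, and TMEM41B, a lipid scramblase needed for autophagosomes, by 1.03 and 0.94. PINK1, the kinase that marks damaged mitochondria, rose by 1.02 ± 0.065 at 48 h (SE, adjusted p-value = 2.38e-07) and 0.86 ± 0.065 at 24 h (adjusted p-value = 9.97e-07), with arrays of the treatments apart at both times. The shares of higher and lower genes are described by their counts alone, and no difference between the lists was tested.

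**Figure D4:**
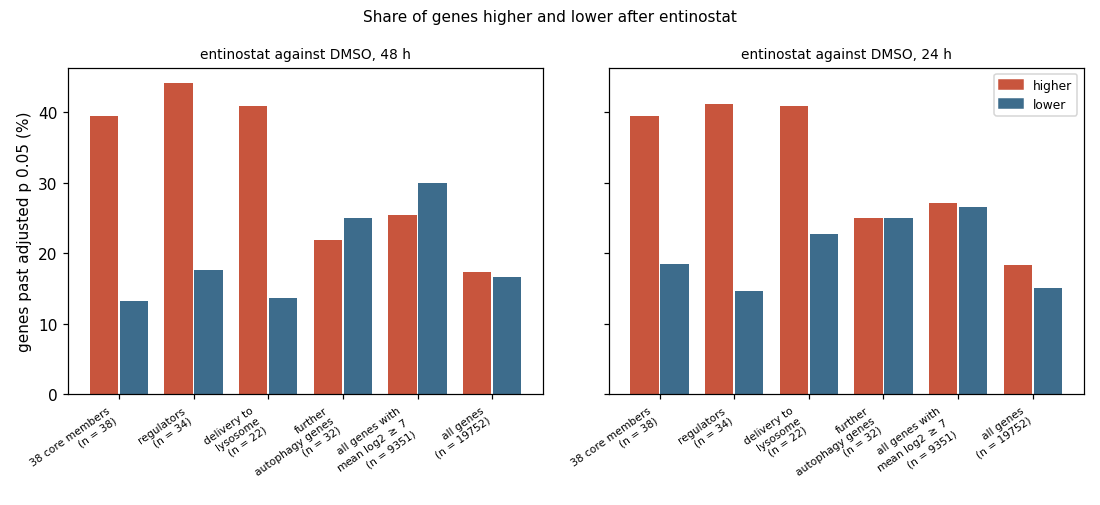
Share of genes (y axis, percent) called higher (red) or lower (blue) in entinostat against DMSO at 48 h (left) and 24 h (right), for the core genes, 3 lists of other autophagy genes, all genes with a mean log2 intensity of at least 7 and all genes (x axis). Of the 38 core genes, 39.5% were higher at each of the 2 times, against 25.4% and 27.1% of the 9351 genes at that intensity.

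The plot of shares by list sets the core genes beside the other autophagy genes and the background. Protein levels, lipidated LC3 and autophagic flux were not analysed here, so the values describe mRNA only.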

How the data were processed

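RNA of HD-MB03 cells was measured on 12 Affymetrix U133 Plus 2.0 arrays, 3 per group. For the deposited intensity values the authors name GCRMA, whose version is not given in the sources used here, and a log2 step. The deposited intensities are linear, so log2 was taken here, and none is under 36.7. Whether they are the export that the authors analysed is unknown. Background left in the values would compress the fold changes of dim probe sets, and its size was not measured. No column of the table was left unmapped.

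After 62 controls were removed, 54613 probe sets were tested. Symbols were updated to current names, and the 1801 probe sets with several symbols and 11721 with none named no gene. A linear model with 1 coefficient for each of the 4 groups was fitted over all arrays with limma 3.58.1 (R 4.3.3), followed by Benjamini-Hochberg adjustment over all probe sets. The procedure was tested on simulated data. Intensities on every array are given for members with a called log2 fold change of at least 0.5 or a called difference between the times, and other listed genes are named from a log2 fold change of 1. Genes singled out beyond that were chosen after their values were seen. The members and lists were chosen with earlier results of these data known. Alternatives concerned the choice of probe set, dim probe sets, scaling, background, prior, threshold, replicate block and single arrays. Promoter windows come from RefSeq (GRCh38.p14).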

Additional observations from a re-analysis of the deposited data

Results flagged for a closer look

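ULK2, a kinase that starts autophagy, stood out because its response to entinostat differed between the times by a test of the difference itself. The effect at 48 h minus that at 24 h was -0.56 on the log2 scale (adjusted p = 0.0294 from limma). BNIP3L, a mitophagy receptor, stood out for the same reason, with -0.74 (adjusted p = 0.0269), and 3 of 3 arrays of entinostat lay below those of DMSO at 48 h and above them at 24 h. Each call was lost when some single arrays were left out.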

How the results depend on the processing

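Results were recomputed under 23 alternatives, 12 of which left out 1 array each. Values of single members were recomputed under 21 or 22 of these, without the alternative on the size of the fold change. Of 44 called values, 43 kept their direction in all of those run and 25 also stayed past the threshold, and 15 of 34 uncalled values passed under at least 1. The median log2 fold change of the members stayed above 0, at 0.07 to 0.11 at 48 h and 0.12 to 0.18 at 24 h without single arrays. Among values called in the main or the alternative run, the direction turned for ULK2 at 48 h, to 0.063. This was by the probe set with the strongest effect or when those ending in _x_at or _s_at were left out. WIPI2 turned under the same settings, to 0.35 at 48 h and 0.42 at 24 h. SQSTM1 turned at 48 h, to 0.64 by the probe set with the strongest effect. Some values called in neither run changed sign too, such as ATG3 (-0.10 to 0.16) and PIK3R4 (0.17 to -0.08) at 48 h. With probe sets ending in _x_at or _s_at left out, only 28 members were measured. Of these, 3 were lower at 48 h (14.7% of all genes), 4 lower at 24 h (13.5%) and 1 had a called difference between the times (1.72%). That difference was called for 0 members by the strongest probe set, after 30 was subtracted from every intensity and at an adjusted p under 0.01. In the main analysis 8 members had an unadjusted p under 0.05 for it, and the share of all genes at that level was not counted. At an adjusted p under 0.01, 9 were higher and 3 lower at 48 h, against 13.5% and 12.2% of all genes. At 24 h, 13 were higher and 1 lower at that threshold, against 14.2% and 10.3%. With a log2 fold change of at least 0.5 in size, 5 were higher and 2 lower at 48 h, against 8.58% and 6.59% of all genes. The counts at 24 h were 3 higher and 1 lower, against 8.66% and 5.17%. Without single arrays, the 48 h counts were 11 to 15 higher and 3 to 6 lower. Among all genes, 15.5% to 17.4% were higher and 14.5% to 16.6% lower in those refits. The 24 h counts were 14 to 17 higher and 3 to 8 lower, against 16.1% to 18.5% and 12.4% to 15.1% of all genes. A called difference was found for 0 to 2, against 0.623% to 1.43% of all genes. The 3 lower at 48 h were found without DMSO replicate 3 at 48 h. At 24 h, 3 were lower without DMSO replicate 3 or entinostat replicate 3, and 4 without entinostat replicate 1. The cause of these shifts was not tested.

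Replicate numbers were shared between the groups, and deviations of same-numbered arrays had correlations from -0.061 to 0.202. At 24 h every entinostat array correlated best with the DMSO array of its number (0.053, 0.202 and 0.172). The same held for every DMSO array at 48 h against those at 24 h. Between entinostat and DMSO at 48 h it held for replicate 1 alone. The main model assumed no pairing by number. With the replicate number as a block, the 48 h count was 14 higher and 5 lower, against 17.4% and 16.9% of all genes. The 24 h count was 14 higher and 8 lower, against 18.6% and 15.1%. A called difference was found for 2, against 2.07%, so no count moved by over 1.5 times. The calls of ATG12 at 48 h and ATG13 at 24 h were lost (adjusted p-values 0.0524 and 0.0536), and ATG14 at 24 h was gained (0.0457). After 30 was subtracted, the log2 fold changes at 48 h were 1.62 for GABARAPL1, 1.65 for OPTN and 1.03 for ATG4A.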
